A study of Mus musculus with 45 samples.

Results

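All mice that carried the APP/PS1 transgene (A+) were compared with all that did not (Aw), to find the small differences that comparisons of 4 to 6 mice per group could not show. The 45 mice of the series were taken, 21 A+ and 24 Aw, with every one of the 15897 genes in the deposited hippocampal RNA table. They were female, on a C57Bl/6J background, and were fed their diet from 7 to 13 months of age, when they were killed. Among A+ mice there were 11 without the tau transgene (Tw), 5 on standard diet (STD) and 6 on typical Western diet (TWD), and 10 with it (T+), 4 on STD and 6 on TWD. The Aw mice comprised 12 Tw and 12 T+, each with 6 on STD and 6 on TWD. The A transgene co-expresses a chimeric mouse and human APP with the Swedish mutations and a human PS1 lacking an exon, under the mouse prion protein promoter, and the T transgene is human tau with the P301L mutation under the CaMKII promoter, which is active in forebrain neurons. TWD held 21% fat by weight and 0.15% cholesterol, STD 5% fat and no added cholesterol. Batch 0 held 11 A+ and 9 Aw mice, batch 1 held 10 and 15.

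The APP/PS1 transgene raises the amount of amyloid-β, which aggregates into plaques in cortex and hippocampus. Microglia, the resident phagocytes of brain tissue, gather at plaques, and their receptors Trem2, Tyrobp and the Fc receptors signal through Syk, Plcg2 and PI3-kinases to a programme of lysosomal, lipid and antigen-presenting genes. Astrocytes near plaques take up a reactive state with raised Gfap. In whole-tissue RNA, more or fewer cells of a type and more or less RNA per cell cannot be told apart.

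The values are variance-stabilized counts on a log2-like scale from which the authors had removed batch differences. Differences are therefore in log2 units of that scale, which understates the change of weakly expressed genes. They were estimated for each gene as A+ minus Aw in a linear model with tau genotype, diet and batch as covariates (limma), and a gene was called at an adjusted p under 0.05. The medians of the 45 mice lay between 8.05 and 8.31, and correlations between mice between 0.858 and 0.990. The mice PM265 (AwTw/TWD), AM245 (A+T+/TWD) and PM271 (A+Tw/STD) were given the lowest weights by limma, 0.230, 0.289 and 0.305 where 1 is average, and results were recomputed without them. The 16 choroid plexus markers, led by Ttr, stood higher in A+ mice in 16 of 16 cases, with a median difference of 0.78, and 0 of them were called. Their mean level ranged from 6.21 to 9.86 in A+ and from 5.97 to 10.14 in Aw mice, and calls that were lost when this level was added to the model are given with the groups of genes below.

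The targeted genes followed the labels. Prnp, whose promoter drives the A transgene, lay between 14.65 and 15.02 in A+ mice (median 14.83) and between 13.28 and 13.98 in Aw mice (median 13.77), a difference of 1.11 (SE 0.043, limma adjusted p = 2e-24). App lay between 15.05 and 15.80 in A+ mice (median 15.41) and between 14.29 and 14.86 in Aw mice (median 14.47), a difference of 0.90 (SE 0.047, limma adjusted p = 1.4e-19). Neither gene's ranges overlapped. The processed pseudogene Lamr1-ps1 (GRCm38 chromosome 2, 131904086 to 131904959, plus strand) ends 4.969 kb before the start of Prnp on the same strand. It ranged from 5.56 to 6.73 in A+ mice and from 4.06 to 4.62 in Aw mice, a difference of 1.79 (SE 0.070, limma adjusted p = 2e-24). Rassf2, on the far side of Prnp, differed by 0.06 (limma adjusted p = 0.61). The part of the transgene construct in the Lamr1-ps1 difference was not tested, and the site of insertion is not given in the sources used here. Mapt, the gene of tau, differed by -0.05 (limma adjusted p = 0.62), and Camk2a, whose promoter drives the tau transgene, by -0.12 (limma adjusted p = 0.42).

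Carriers differed from non-carriers in 601 genes, 3.78% of those tested, of which 493 (3.1%) were higher and 108 (0.679%) lower. The 10 greatest differences included genes known from plaque-associated microglia and Lamr1-ps1, given above. Cst7, an inhibitor of lysosomal cathepsins, differed by 4.13 (SE 0.094), which is 17.5-fold on this scale. The integrin Itgax differed by 2.33 and the β-glucan receptor Clec7a by 1.90. The receptor Trem2 and its adaptor Tyrobp differed by 1.81 and 1.71, the lysosomal protein Cd68 by 1.74, the chemokines Ccl3 and Ccl6 by 1.69 and 1.60, and the complement component C4b by 1.58. All of these passed the test, in limma with adjusted p from 9.1e-34 to 1.2e-16. The ranges of A+ and Aw mice did not overlap for 27 genes, 0.17% of those tested, all of them higher in A+. Counted among the 27 is a gene without a symbol whose difference equals that of Trem2 (1.81).

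Most of the called differences were far below those of the plaque-associated genes. Of the 601 genes, 113 differed by less than 0.25, 296 by 0.25 to 0.5, 151 by 0.5 to 1 and 41 by more than 1. The directions were unlike in size. Of the 108 lower genes, 64 differed by less than 0.25 and 3 by more than 0.5, and none by more than 1. Of the 493 higher genes, 49 differed by less than 0.25 and 189 by 0.5 or more. The least difference called was 0.13, the median 0.38.

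**Figure D1:**
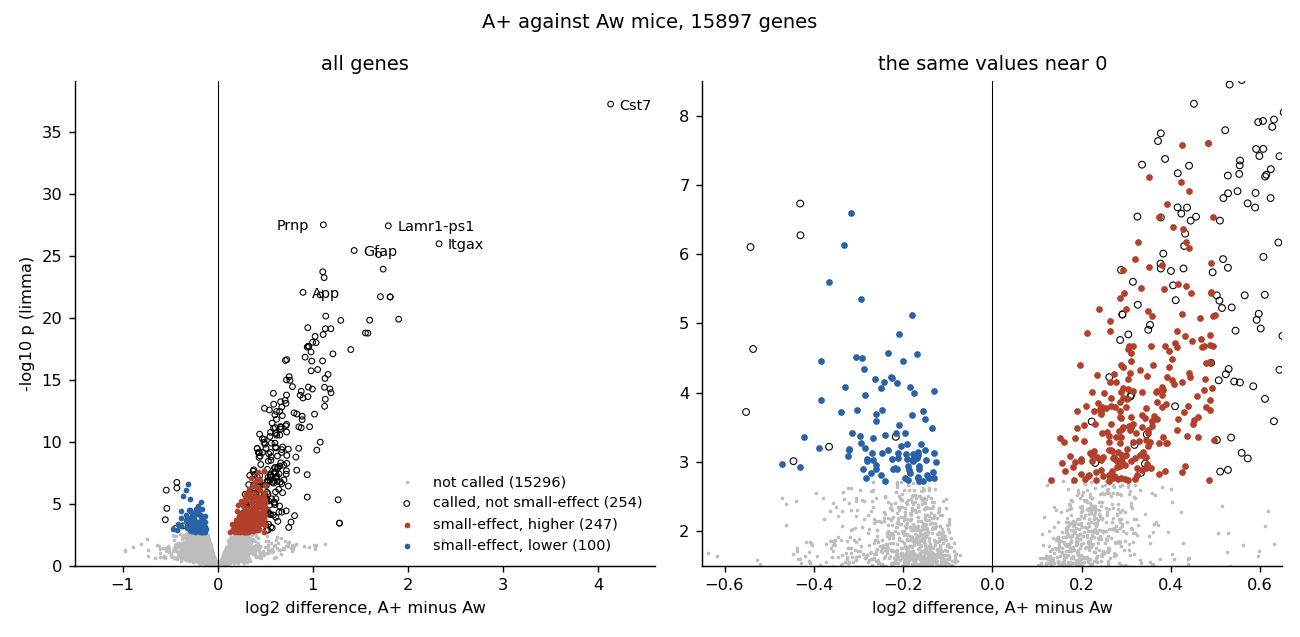
Each point is 1 gene, with the log2 difference A+ minus Aw on the horizontal axis and -log10 of the limma p on the vertical axis; the right panel enlarges the region near 0. The 247 small-effect higher genes (red) and 100 small-effect lower genes (blue) lie within 0.5 of 0, and open circles are the other 254 called genes, among them Cst7 at 4.13.

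Pooling the mice lowered the error of each difference. The median standard error over all genes was 0.079 with all mice and 0.154 to 0.169 when A+ was compared with Aw within a single tau genotype and diet. The 4 such comparisons called 147 genes in Tw/STD, 131 in Tw/TWD, 151 in T+/STD and 121 in T+/TWD. Of the 601 genes, 212 were called in at least 1 of the 4 and 389 in none, while 16 genes were called in 1 of them and not with all mice. A gene was taken as small-effect if it was called with all mice, differed by less than 0.5 and was called in none of the 4 comparisons. There were 347 such genes, 2.18% of those tested, 247 higher (1.55%) and 100 lower (0.629%). Since the rule selects on the size and the test of the same comparison, their number describes the sample size as well as the tissue.

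The small-effect genes had a median difference of 0.31 among the higher ones, a 1.24-fold level, and of -0.22 among the lower ones, a 0.858-fold level. The higher ones ranged from 0.13 to 0.50 and the lower ones from -0.47 to -0.13. The direction was the same in all 4 comparisons for 342 of the 347 genes, a property that the choice of genes by their overall difference favours. Protein-coding genes made up 332 of them. In none did the values of A+ and Aw mice separate completely. At the edge of the size limit, Fblim1 lay inside at 0.4988 and Naglu outside at 0.5028.

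**Figure D2:**
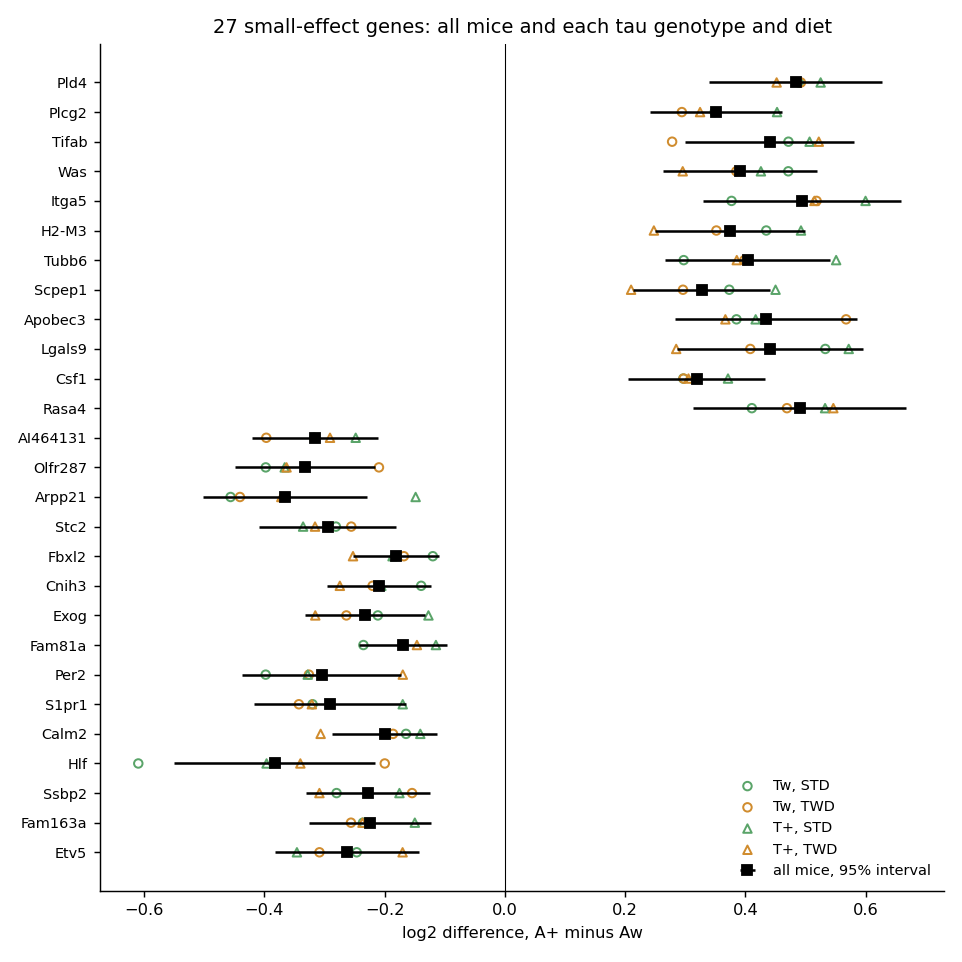
Log2 difference A+ minus Aw for 12 higher small-effect genes named in the text and for the 15 lower ones of smallest p. Squares with bars give all mice with the 95% interval, circles and triangles the 4 comparisons within 1 tau genotype and diet, which lie on the same side of 0 as the square because the genes were chosen for that.

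The small-effect genes that rose in A+ mice are described first. Pld4, a lysosomal nuclease of microglia, had values from 6.91 to 7.96 in A+ mice (median 7.36) and from 6.38 to 7.48 in Aw mice (median 6.88). The A+ mice thus lay higher as a group with overlapping ranges, and the difference was 0.48 (SE 0.071, limma adjusted p = 2.7e-06). In the 4 comparisons by tau genotype and diet it was 0.45 to 0.53, and the smallest adjusted p there was 0.11.

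Plcg2, the phospholipase that acts below Trem2 and Syk, ranged from 7.22 to 7.78 in A+ mice (median 7.55) and from 6.79 to 7.65 in Aw mice (median 7.12), a difference of 0.35 (SE 0.054, limma adjusted p = 7.6e-06). The A+ mice again lay higher as a group while the ranges overlapped.

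Further genes of the same direction act in signalling and the cytoskeleton. Was, which drives actin branching in blood cells, differed by 0.39 (SE 0.063), the fibronectin receptor subunit Itga5 by 0.49 (SE 0.082), the tubulin Tubb6 by 0.40 (SE 0.068), the Ras GTPase-activating protein Rasa4 by 0.49 (SE 0.088) and Tifab by 0.44 (SE 0.070). Genes of defence and antigen display were the class Ib molecule H2-M3 at 0.37 (SE 0.062), the cytidine deaminase Apobec3, which restricts retroviruses, at 0.43 (SE 0.075), and the galectin Lgals9 at 0.44 (SE 0.077). Csf1, a ligand of the receptor on which microglia depend, differed by 0.32 (SE 0.057) and the lysosomal carboxypeptidase Scpep1 by 0.33 (SE 0.056). In limma, the adjusted p of these 10 genes ran from 1.2e-05 (Tifab) to 0.00011 (Rasa4). Together with Pld4 and Plcg2, all 12 were higher in both batches when each was fitted alone, which their choice over all mice favours, by 0.23 (Csf1) to 0.56 (Apobec3 and Itga5) in batch 0 and by 0.35 (Apobec3) to 0.61 (Pld4) in batch 1. With the choroid plexus level as a covariate all 12 were still called, the weakest being Lgals9 at a limma adjusted p of 0.00076.

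**Figure D3:**
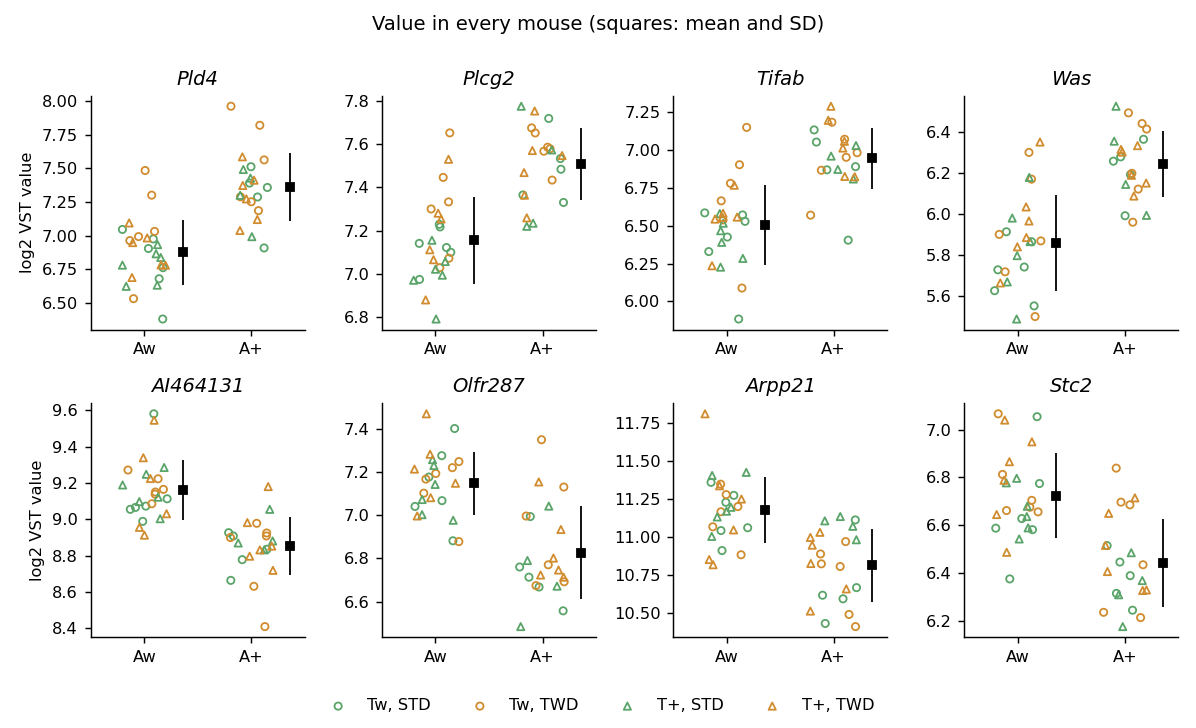
Log2 VST value in every mouse for Pld4, Plcg2, Tifab and Was, which were higher, and for the 4 lower small-effect genes of smallest p, Aw on the left and A+ on the right of each panel. Symbols mark tau genotype and diet, and squares with bars the mean and SD; the groups are shifted and overlap in every panel.

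Promoters of these genes were read to show where sequence motifs of immune cell regulators lie. RefSeq promoters (GRCm38.p6, 250 bases before to 50 after the start of transcription, the first window listed for each gene) were matched by symbol for 11620 tested genes, 191 small-effect higher and 69 small-effect lower genes among them. The letters GAGGAAGT, a motif bound by PU.1, the ETS factor of myeloid cells, stood on either strand in 15 of the 191 higher genes (7.85%), in 1 of the 69 lower genes (1.45%) and in 321 of all 11620 (2.76%). Among genes called higher by 0.5 or more they stood in 19 of 138 (13.8%). The interferon response motif, GAAA, any 2 bases and again GAAA, stood in 13 of the 191 (6.81%), in 2 of the 69 (2.9%) and in 336 of all (2.89%). The AP-1 motif TGANTCA, where N is any base, stood in 20 of the 191 (10.5%), in 1 of the 69 (1.45%) and in 563 of all (4.85%), while the E-box CACGTG stood in 15 of the 191 (7.85%), in 7 of the 69 (10.1%) and in 1137 of all (9.78%). These are counts of letters and not of bound sites. Of the 12 higher genes named above, Pld4 held the PU.1 motif, Apobec3 and Lgals9 the interferon motif, and Plcg2 the E-box. The E-box also stood in Fbxl2, Cnih3 and Fam163a, which are among the 15 lower genes described later. The promoters with the PU.1 and interferon motifs are given 5′ to 3′ with the motif in capitals, Pld4 from chr12:112760405-112760704 (plus strand), Apobec3 from chr15:79892158-79892457 (plus strand) and Lgals9 from chr11:78984875-78985174 (minus strand):
Pld4: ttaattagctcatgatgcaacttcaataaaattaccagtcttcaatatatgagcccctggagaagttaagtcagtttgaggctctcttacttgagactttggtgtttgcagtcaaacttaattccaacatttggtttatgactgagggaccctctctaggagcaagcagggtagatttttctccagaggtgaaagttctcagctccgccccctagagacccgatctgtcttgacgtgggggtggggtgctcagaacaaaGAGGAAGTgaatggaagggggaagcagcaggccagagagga
Apobec3: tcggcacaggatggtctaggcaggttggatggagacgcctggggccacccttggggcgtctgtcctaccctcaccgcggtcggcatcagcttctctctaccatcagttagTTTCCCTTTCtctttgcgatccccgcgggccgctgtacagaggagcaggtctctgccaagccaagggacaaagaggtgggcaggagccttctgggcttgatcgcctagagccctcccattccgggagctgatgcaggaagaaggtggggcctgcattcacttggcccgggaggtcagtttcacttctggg
Lgals9: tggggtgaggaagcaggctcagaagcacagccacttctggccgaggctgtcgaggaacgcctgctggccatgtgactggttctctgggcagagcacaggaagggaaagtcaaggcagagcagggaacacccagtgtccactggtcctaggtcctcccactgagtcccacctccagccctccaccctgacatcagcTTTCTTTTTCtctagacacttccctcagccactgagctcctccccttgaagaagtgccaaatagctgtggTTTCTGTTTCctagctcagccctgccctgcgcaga

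The motif of Pld4 begins 9 bases after the start of transcription. That of Apobec3 begins 140 bases before it, and Lgals9 holds it at 55 bases before and 15 after.

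Sorted by function, the small-effect higher genes were spread over the immune lists, and 49 of the 245 that are no copy of another gene stood on any of the 36 lists of genes used here, as did 6 of the 100 lower ones. Small-effect genes that are named below as members of a list were picked after their values were seen. Counts of called members are to be read beside the 3.1% of all genes called higher and the 0.679% called lower. Among receptor kinases, adaptors and PI3-kinases of immune cells, 19 of 27 measured genes rose and none fell, with a median of 0.37 beside -0.02 over all genes. Of the 19, 7 were small-effect, among them Was, Pik3cg (0.38), Plcg2, Btk (0.30), Lyn (0.29) and Syk (0.25). The phosphatase Ptpn6, which counteracts such kinases, was one of the 12 that were not small-effect and differed by 0.97 (SE 0.104, limma adjusted p = 1.2e-09). All 19 were still called with the choroid plexus level as a covariate.

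Transcription factors of myeloid cells were called mostly at small differences. Of 19 measured, 11 rose and 1 fell, with a median of 0.26. Irf8, which controls microglial development, differed by 1.08 (SE 0.058) and Irf5 by 0.66 (SE 0.071). Among the 7 small-effect members that rose were Ikzf1 (0.49), Stat3 (0.33), Nfkb2 (0.28), Nfatc1 (0.27), Runx1 (0.26) and Rela (0.20). Etv5 was the member of this list that fell, by 0.26, and is described with the lower genes as a factor induced by ERK signalling. The cell type in which it fell was not tested. Of the 11, 10 were still called with the choroid plexus level as a covariate, Rela being the exception.

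Interferon-stimulated genes were higher in A+ mice without exception in sign. Of 25 measured, 25 lay above 0, 14 passed the test, and 6 of these were small-effect, namely Ifit3 (0.46), Oas1a (0.45), Irf7 (0.43), Usp18 (0.38), Gbp3 (0.37) and Gbp2 (0.32). The list's mean level ranged from 6.79 to 7.60 in A+ mice and from 6.26 to 7.13 in Aw mice. Stat2, which carries the interferon signal, differed by 0.15 and did not pass the test. In antigen presentation, 14 of 19 rose, with a median of 0.61, and Nlrc5 (0.39), the activator of class I genes, Psmb9 (0.37), a subunit of the immunoproteasome, and Tap2 (0.28), a peptide transporter, were the small-effect members. With the choroid plexus level as a covariate 10 of the 14 interferon-stimulated genes were still called, without Ifit3, Irf7, Bst2 and Gbp2, and 10 of the 14 of antigen presentation, without H2-Aa, Nlrc5, Tap2 and Psmb9.

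In the lysosome, 26 of 44 genes rose and none fell, with a median of 0.22. The greatest differences were those of Cd68 and of cathepsins, and the small-effect tier held 9 genes. Among these were Tcirg1 (0.49), a subunit of the proton pump, the membrane protein Cd63 (0.49), the proteases Ctsc (0.46) and Ctsb (0.31), the hydrolases Glb1 (0.23) and Pla2g15 (0.19), and the main membrane protein Lamp1 (0.16). In lipid handling 5 of 20 rose, among them Ch25h, the enzyme that makes 25-hydroxycholesterol, by 0.61 (SE 0.068). In cholesterol synthesis 2 of 21 rose, beside 3.1% of all genes, Fdps by 0.28 (SE 0.081) and Fdft1 by 0.22 (SE 0.056). Fdps lost its call without the 3 mice of lowest weight (limma adjusted p = 0.064). With the choroid plexus level as a covariate 23 of the 26 lysosomal genes were still called, without Ctsc, Glb1 and Lamp1, and Plin2, of lipid handling, and Fdps were not.

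Homeostatic and disease-associated microglial genes were not opposed in direction. Of 25 disease-associated genes, 20 rose, with a median of 0.94, and of 15 homeostatic genes 9 rose and 0 fell, with a median of 0.51. P2ry12 and Tmem119, which are used to identify resting microglia, differed by 0.07 and 0.23 and did not pass the test (limma adjusted p = 0.83 and 0.13). Reactive astrocyte genes rose in 13 of 24 cases, Gfap by 1.43 (SE 0.062), with Stat3 and Gbp2 as small-effect members. Of 20 astrocyte identity genes none rose and 1 fell, where 0.679% of all genes did. That gene, Slc6a11, lost its call with the choroid plexus level as a covariate (limma adjusted p = 0.08). Of 27 measured genes near risk loci for Alzheimer's disease, some of which (Plcg2, Trem2) stand on other lists too, 10 rose. Among these Rin3 (0.42), Plcg2, Ms4a6d (0.28), Clu (0.24) and Tspan14 (0.15) were small-effect. With the choroid plexus level as a covariate all 20 disease-associated and all 9 homeostatic genes were still called, 12 of the 13 of reactive astrocytes and 8 of the 10 near risk loci, Clu and Ms4a6d being the exceptions there. Apoe differed by 0.29 and was not called (limma adjusted p = 0.058), which depended on the fit. Its limma adjusted p was 0.26 with the choroid plexus level and 0.051 without the 3 mice of lowest weight. With array weights it was 0.012 and under quantile normalization 0.0028, both past the threshold.

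**Figure D4:**
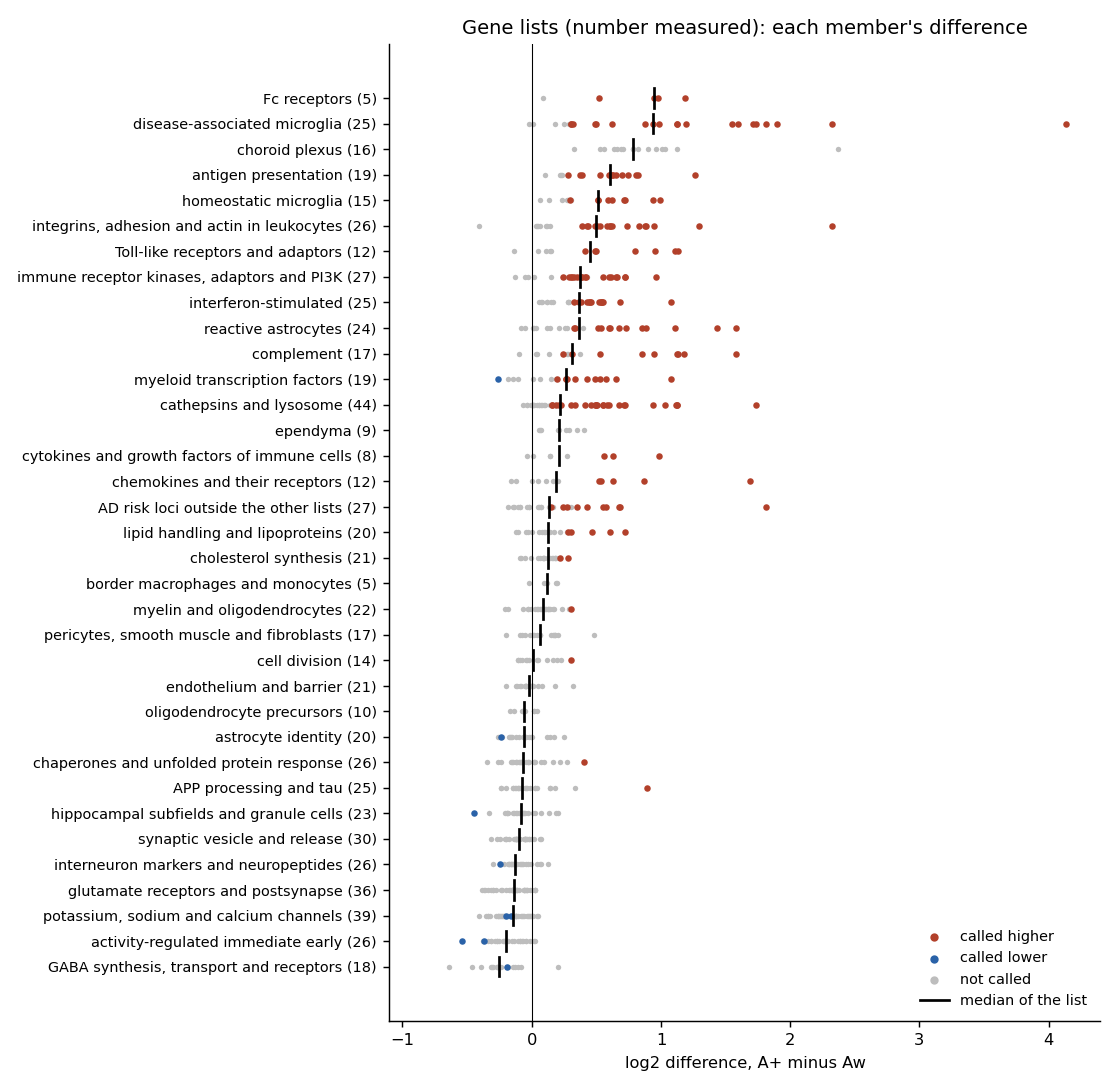
Each point is 1 gene of a list, at its log2 difference A+ minus Aw, for the 35 lists with more than 1 measured gene, ordered by their median (black bar). Red points were called higher, blue points called lower and grey points not called; immune lists lie to the right, and the lists of neuronal genes have medians between -0.25 and -0.08.

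The remaining immune and support lists are given as counts, to be read beside the 3.1% of all genes that were called higher. Complement genes rose in 9 of 17 cases, Fc receptors in 4 of 5, Toll-like receptors and their adaptors in 7 of 12, chemokines and receptors in 5 of 12, cytokines and growth factors in 3 of 8, and integrins and actin regulators in 17 of 26. None of these fell, and with the choroid plexus level as a covariate Clu, of complement, was the one that lost its call. For the following lists 1 gene called is near the share over all genes. Of 26 chaperones and genes of the unfolded protein response, Atf3 alone rose (0.40, SE 0.091), of 22 myelin genes Cldn11 alone (0.30, SE 0.083), and of 14 cell division genes Mki67 alone (0.30, SE 0.091, limma adjusted p = 0.049). Of 25 genes of APP processing and tau, App alone rose. Cldn11 and Mki67 lost their calls with the choroid plexus level as a covariate. No member of the lists of oligodendrocyte precursors (10 measured), endothelium (21), pericytes and smooth muscle (17), ependyma (9) or border macrophages (5) was called. Of the 17 markers of lymphocytes and neutrophils, 1 was in the table.

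The small-effect genes that fell are described next, starting with the named ones that act in neuronal signalling. Arpp21, a regulator of calmodulin signalling in neurons, had values from 10.41 to 11.14 in A+ mice (median 10.83) and from 10.82 to 11.81 in Aw mice (median 11.18). The difference was -0.37 (SE 0.068, limma adjusted p = 0.00018), and A+ mice lay lower with overlapping ranges. Calm2, a calmodulin gene, ranged from 13.74 to 14.38 in A+ mice (median 14.10) and from 13.85 to 14.50 in Aw mice (median 14.32), a difference of -0.20 (SE 0.043, limma adjusted p = 0.0019). Calm3, another calmodulin gene, differed by -0.09 and did not pass the test.

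Cnih3, an auxiliary subunit of AMPA-type glutamate receptors, ranged from 9.54 to 10.06 in A+ mice (median 9.79) and from 9.69 to 10.23 in Aw mice (median 9.97), a difference of -0.21 (SE 0.043, limma adjusted p = 0.00087). Cnih2, the other hippocampal cornichon of AMPA receptors, differed by 0.06 (limma adjusted p = 0.82). S1pr1, a receptor for sphingosine 1-phosphate, ranged from 9.79 to 10.84 in A+ mice (median 10.57) and from 10.31 to 11.12 in Aw mice (median 10.85), a difference of -0.29 (SE 0.063, limma adjusted p = 0.0018). The secreted glycoprotein Stc2 differed by -0.29 (SE 0.056), the F-box protein Fbxl2 by -0.18 (SE 0.036), the mitochondrial nuclease Exog by -0.23 (SE 0.050) and the transcriptional regulator Ssbp2 by -0.23 (SE 0.051). Fam81a differed by -0.17 (SE 0.036) and Fam163a by -0.22 (SE 0.051). AI464131 and the olfactory receptor gene Olfr287 had the smallest p of the lower small-effect genes, at -0.32 (SE 0.052, limma adjusted p = 2.3e-05) and -0.33 (SE 0.058, limma adjusted p = 5.9e-05). These differences are of 11% to 23% in level across the 15 genes named.

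Circadian and ERK-related genes were looked at after the values of Per2, Hlf and Etv5 were seen. Per2, a repressor of the circadian clock, ranged from 8.20 to 9.12 in A+ mice (median 8.66) and from 8.63 to 9.26 in Aw mice (median 8.89), a difference of -0.30 (SE 0.066, limma adjusted p = 0.0017). Hlf, a PAR-bZIP factor under clock control, ranged from 9.86 to 10.94 in A+ mice (median 10.49) and from 10.23 to 11.28 in Aw mice (median 10.91), a difference of -0.38 (SE 0.083, limma adjusted p = 0.0019). The other 14 clock and PAR-bZIP genes were not called. Of the 16, 14 lay below 0, where 55.9% of all genes did. Per2 and Hlf, whose values led to this choice of genes, are among the 14. So are Clock at -0.27, Nr1d2 at -0.24, Tef at -0.13, Dbp at -0.11 and Per1 at -0.09. Arntl (0.002) and Cry1 (0.11) lay above 0. The hour at which the mice were killed is not given in the sources used here.

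The ETS factor Etv5, which is induced by ERK signalling, ranged from 9.41 to 10.12 in A+ mice (median 9.87) and from 9.79 to 10.43 in Aw mice (median 10.13), a difference of -0.26 (SE 0.059, limma adjusted p = 0.0032). Of 13 ETV, Sprouty, Spred and dual-specificity phosphatase genes of ERK signalling, 3 fell, where 0.679% of all genes did. Below 0 lay 12, beside 55.9% of all genes. Etv5, whose value led to this choice of genes, is counted in both, so the counts are no test of the group. Spry4, an inhibitor of the pathway that the pathway itself induces, differed by -0.28 (SE 0.067), the ERK phosphatase Dusp4 by -0.26 (SE 0.074) and Dusp6 by -0.27 with a limma adjusted p of 0.051. Dusp4 lost its call with the choroid plexus level as a covariate (limma adjusted p = 0.22) and under quantile normalization (0.057). Of 9 adenylyl cyclases, which make cAMP, Adcy1 fell by 0.38 (SE 0.091) and Adcy2 by 0.15 (SE 0.038), and Adcy7, the form of immune cells, rose by 0.47 (SE 0.055). Adcy2 lost its call with the choroid plexus level (limma adjusted p = 0.093) and under quantile normalization (0.09), while Adcy1 stood at 0.049 and 0.032.

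The cAMP response motif TGACGTCA stood in the promoters of 5 of the 69 small-effect lower genes (7.25%), 1 of the 191 higher genes (0.524%) and 372 of all 11620 genes (3.2%). Of the 15 lower genes named above it stood in that of Hlf, 9 bases before the start of transcription, as read from chr11:90390868-90391167 (GRCm38.p6, minus strand) with the motif in capitals:
Hlf: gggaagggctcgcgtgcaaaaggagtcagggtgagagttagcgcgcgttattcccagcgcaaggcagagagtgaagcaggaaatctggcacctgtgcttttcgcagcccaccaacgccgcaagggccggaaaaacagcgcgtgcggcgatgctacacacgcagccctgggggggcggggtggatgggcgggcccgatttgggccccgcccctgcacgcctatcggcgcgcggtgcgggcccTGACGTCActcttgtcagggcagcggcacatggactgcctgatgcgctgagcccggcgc

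The lists of neuronal genes lay below 0 with few calls, beside 55.9% of all genes below 0, a median over all genes of -0.02 and 0.679% of all genes called lower. Of 30 genes of synaptic vesicles and release 27 lay below 0, with a median of -0.10, and of 36 glutamate receptor and postsynaptic genes 32 lay below 0, with a median of -0.13. No gene of these 2 lists was called. Of 39 potassium, sodium and calcium channels 36 lay below 0, with a median of -0.15, and 2 were called, among them Kcnk2 (-0.16, SE 0.047). Among 18 genes of GABA synthesis, transport and receptors, the list with the lowest median at -0.25, 17 lay below 0 and 1 was called. Gabrb2, a receptor subunit, differed most in that list, by -0.64, without passing the test. Slc6a11, the GABA transporter of astrocytes, differed by -0.24 (SE 0.063, limma adjusted p = 0.015) and was the only astrocyte identity gene called.

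Of 26 interneuron markers and neuropeptides, Crhbp, which binds corticotropin-releasing hormone, was called at -0.25 (SE 0.061, limma adjusted p = 0.0076). Among 26 immediate early genes, which neuronal activity induces, 24 lay below 0, with a median of -0.20, and Egr1 and Npas4 were called. Egr1 ranged from 9.89 to 11.17 in A+ mice (median 10.48) and from 10.33 to 11.76 in Aw mice (median 10.99), a difference of -0.54 (SE 0.113, limma adjusted p = 0.0013). Npas4 differed by -0.37 (SE 0.099, limma adjusted p = 0.021). Neither was small-effect by the rule used. Among 23 markers of hippocampal subfields, Dsp, a desmosomal gene of dentate granule cells, was called at -0.45 (SE 0.126, limma adjusted p = 0.03).

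How many of the small-effect calls stood depended on the choroid plexus level, on the normalization and on single mice. With the choroid plexus level as a covariate, 150 of the 247 higher small-effect genes (median 0.29) and 37 of the 100 lower ones (median -0.19) were still called, and all 347 kept their direction. The 15 lower genes named first were all among those still called, with limma adjusted p from 0.00028 (AI464131) to 0.03 (Etv5), while Slc6a11 (0.08), Kcnk2 (0.12) and Dsp (0.16) were not, with these limma adjusted p in brackets. Ttr itself, which encodes the transthyretin of choroid plexus, ranged from 9.73 to 17.59 in A+ mice and from 7.49 to 18.08 in Aw mice. Without the mouse PM265, the count of lower genes was 190 instead of 108. Without the 3 mice of lowest weight, 219 of the 247 higher and 80 of the 100 lower small-effect genes were still called. Under quantile normalization these were 192 of the 247 higher and 56 of the 100 lower. Leaving out each of the 45 mice in turn kept 182 of the 247 higher and 54 of the 100 lower genes in every one of the 45 fits. The share of higher genes among the calls was 82% and depended on the weights and covariates of the fit, with 704 higher and 363 lower genes under limma's array weights and 603 higher and 496 lower with the leading residual component as a covariate.

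Differences found in some mice were then looked up in mice that had no part in finding them. The batches share no mice, although they went through the same batch removal. Batch 0 alone called 239 higher genes (1.5% of those tested), and 232 of these (97.1%) were higher in batch 1, where 49.9% of all genes were. Of the 53 with a difference below 0.5, 49 were higher in batch 1 and 39 had an unadjusted p under 0.05 there, 73.6% beside 8.32% of all genes. In the other order, batch 1 alone called 320 higher genes (2.01%), of which 314 (98.1%) were higher in batch 0, beside 45.8% of all genes. Of the 128 with a difference below 0.5, 124 were higher in batch 0 and 75 had an unadjusted p under 0.05, 58.6% beside 5.6% of all genes. Their median fell from 0.42 in batch 1, where they were selected, to 0.24 in batch 0.

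Lower genes called in 1 batch were seldom called in the other. Batch 0 called 23 lower genes (0.145%), of which 20 (87%) were lower in batch 1, where 50.1% of all genes were, with a median of -0.43 in batch 0 and -0.15 in batch 1. Of these, 7 had an unadjusted p under 0.05 in batch 1, 30.4% beside 11.2% of all genes, and 1 was called. Batch 1 called 26 (0.164%), of which 20 (76.9%) were lower in batch 0, beside 54.2% of all genes, with medians of -0.36 and -0.06, and again 1 was called in both. The lists of lower genes called in each batch thus shared 1 gene, 4.35% of the former and 3.85% of the latter, against 174 shared higher genes, 72.8% and 54.4% of the lists.

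**Figure D5:**
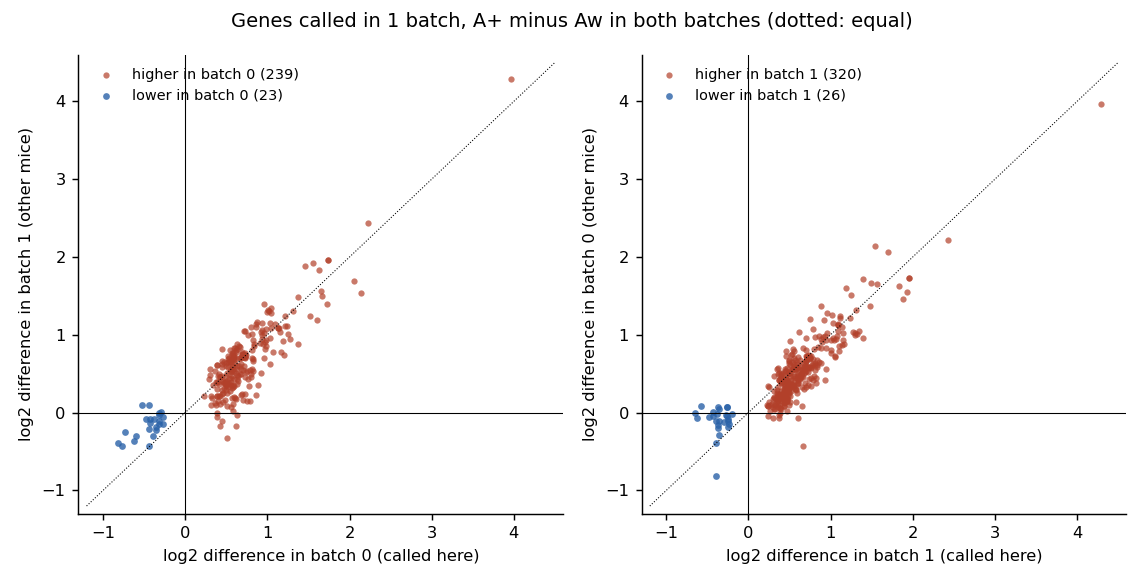
Log2 difference A+ minus Aw in both batches for genes called in batch 0 (left) and in batch 1 (right), with the batch that chose the gene on the horizontal axis. The higher genes (red) lie along the dotted line of equal differences, while lower genes (blue) lie nearer to 0 in the batch that did not choose them.

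Mice split by tau genotype or by diet were compared in the same way. The Tw mice alone called 211 higher genes (1.33%), all 211 of them higher in T+ mice, and 203 of these (96.2%) at an unadjusted p under 0.05, beside 5.84% of all genes. T+ mice called 258 (1.62%), of which 255 were higher in Tw mice. STD mice called 365 (2.3%) and TWD mice 177 (1.11%), of which 364 and all 177 were higher in the other diet. Lower genes called in STD mice numbered 75 (0.472%), and 72 of them were lower in TWD mice, where 57.9% of all genes were. Their median was -0.37 in STD mice and -0.20 in TWD mice, and 24 of them (32%) had an unadjusted p under 0.05 in TWD mice, beside 2.72% of all genes. TWD mice called 7 lower genes (0.044%), Tw mice 5 (0.0315%) and T+ mice 15 (0.0944%).

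Whether tau or diet altered the A+ difference was tested for each gene with an interaction term. No gene passed the threshold for tau or for diet in limma, where 205 and 420 genes had an unadjusted p under 0.05, 1.29% and 2.64% of all. Among the small-effect genes these were 4 and 7 (1.15% and 2.02%). The smallest limma adjusted p was 1 for tau and 0.91 for diet. A p that misses the threshold does not show that the differences were equal, and the error within 1 tau genotype and diet, given above, limits what could be seen.

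Lower calls were also counted along the chromosomes, and the region below was picked after its counts were seen. Of 276 windows of 10 Mb, 198 held no lower gene, and 1 held 5, the window from 110 to 120 Mb of chromosome 9 with 73 tested genes (6.85% beside 0.679% of all genes). Its lower genes were Arpp21 (112065091 to 112235938, GRCm38), Fbxl2 (113963637 to 114046191), Susd5 (114057140 to 114098728), Vill (119052778 to 119071525) and Exog (119444943 to 119465517). Susd5 lost its call with the choroid plexus level (limma adjusted p = 0.18), with array weights (0.075) and without the 3 mice of lowest weight (0.069), and the window then held 4 of these genes at most. Fbxl2 and Susd5 are neighbours, and Susd5 differed by -0.22 (SE 0.063) and Vill, a villin-like protein, by -0.39 (SE 0.106). The window also held 5 higher genes, among them Cx3cr1, the fractalkine receptor of microglia, at 0.59 (SE 0.055), and Tgfbr2, a receptor for TGF-β, at 0.53 (SE 0.095). All 5 lower genes were lower in both batches, which their choice over all mice favours. They were lower by 0.06 to 0.39 in batch 0 and by 0.22 to 0.63 in batch 1. Vill had the least difference in batch 0 (limma unadjusted p = 0.56) and the greatest in batch 1. The window with the next highest count, on chromosome 18, held 4 lower genes among 148. Windows with fewer tested genes had a like share. On chromosome 1, 1 of 14 was lower (7.14%), on chromosome 5, 1 of 15 (6.67%), and on chromosome 3, 2 of 31 (6.45%).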

How the data were processed

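Hippocampal poly(A) RNA of 45 mice was sequenced as single reads. Per the labels and the methods of the study, the authors trimmed the reads (Trimmomatic 0.38), discarded those that Bowtie 2 2.2.3 placed on ribosomal or mitochondrial sequence, quantified mouse transcripts (mm10) with kallisto 0.44.0, summed them per gene with tximport, kept genes with a mean count over 10, applied the variance-stabilizing transformation of DESeq2 1.22.2 and removed batch with limma 3.38.3. The deposited values are thus on a log2-like scale, and the means of the batches are equal for every gene. Depth per mouse is unknown beyond a minimum stated by the study, and precision comes from the spread between mice, each a separate animal. Of 15897 genes, 15695 had a symbol and coordinates in GENCODE M21 (GRCm38). Exact copies of another gene's values numbered 157.

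Here, limma 3.58.1 in R 4.3.3 (empirical Bayes with a mean trend) fitted A genotype with tau genotype, diet and batch, and 8 groups with batch for the comparisons within 1 tau genotype and diet. Tests were two-sided, and Benjamini-Hochberg adjusted p-values, taken over every gene of the table, were held to a threshold of 0.05. The fit was tested on simulated data. The members, lists and size limit were chosen with earlier results of these data known. Named genes were the label checks (App, Prnp, Mapt, Camk2a), the 10 greatest differences called, the 15 small-effect genes in each direction of smallest p and of 1 sign in the 4 comparisons, and at most 3 called genes per list, while others were chosen after their values were seen. Some genes that meet this rule are not reported here. Genes without a symbol or with a provisional one were not named. Alternatives were each batch, tau genotype or diet alone, other covariates, weights, filters and thresholds, quantile normalization, and each mouse left out. The table's columns of per-sample values were all used.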

Additional observations from a re-analysis of the deposited data

Results flagged for a closer look

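Within the 8 groups of 4 to 6 mice, single mice stood apart from their group by Dixon's criterion in 17 of 296 checks over 37 named genes (5.74%). Chance gives about 1 in 20, so the number of such mice is near what chance gives.

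Among the genes of greatest difference, PM284 was the highest of the A+Tw/TWD mice for Cst7 (10.068, next 9.366), and AM279 the lowest of the A+T+/STD mice for Ccl3 (6.335, next 6.848). AM308 was the lowest of the AwTw/STD mice for Clec7a (4.348, next 5.298), and PM271 the highest of the A+Tw/STD mice for C4b (12.210, next 11.594).

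Among the small-effect genes that rose, AM255 was the lowest AwTw/STD mouse for Tifab (5.884) and AM278 the highest A+T+/STD mouse for Tubb6 (6.092). H2-M3 was lowest of the AwT+/STD mice in AM314 (5.450) and highest of the AwT+/TWD mice in AM261 (6.506). In the A+Tw/STD mice, PM271 was the lowest for Apobec3 (6.622).

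Among the small-effect genes that fell, Fbxl2 was lowest in AM245 of the A+T+/TWD mice (8.846) and in AM244 of the A+Tw/TWD mice (8.777). AM308 was the highest AwTw/STD mouse for AI464131 (9.581) and for Fam163a (8.543), and PM272 the lowest of that group for Hlf (10.688). Exog was lowest of the AwT+/STD mice in PM275 (8.071), Per2 highest of the AwT+/TWD mice in PM241 (9.190), and S1pr1 lowest of the AwTw/TWD mice in PM265 (10.312). AM308 stood apart for 3 genes and PM271 for 2, the others for 1 each.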

How the results depend on the processing

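No paired analysis was possible because the replicate numbers only follow the order of the samples and the groups share no animals. With all mice, 601 genes were called, 493 higher and 108 lower, and 347 were small-effect. Parts of the mice gave fewer calls, namely batch 0 alone 262 (239 higher, 23 lower, 69 small-effect), batch 1 alone 346 (320, 26 and 146), Tw mice 216, T+ mice 273, TWD mice 184. Genes above the 25th percentile of mean value gave 352 (272 higher, 204 small-effect), with fewer genes tested. An adjusted p of 0.01 gave 398 (37 lower, 197 small-effect), and a size limit of 0.3 gave 189 small-effect genes. The choroid plexus level as a covariate left 47 lower and 212 small-effect genes. Calls rose with array weights to 1067 (363 lower, 579 small-effect), with the leading residual component to 1099 (496 lower, 750 small-effect), and with that component and the choroid plexus level together, an alternative chosen after seeing the data, to 247 lower genes. The cause of these increases was not tested. The remaining alternatives for these counts stayed within 1.5 times the value with all mice, among them quantile normalization (561) and, chosen after seeing the data, the 3 mice of lowest weight left out (627). Leaving out each mouse in turn gave 523 to 754 calls, 445 to 564 higher, 78 to 190 lower (190 without PM265) and 273 to 471 small-effect genes. Both interactions stayed at 0 throughout in limma. Of 87 named genes, none that was called changed sign, while 234 of their values under an alternative lost the call and 5396 kept their direction and their side of the threshold, and the sign of Mapt, not called, changed in batch 1 alone and with the choroid plexus level. Of 36 lists, 12 changed the sign of their median in at least 1 alternative, among them cell division under quantile normalization (-0.01), myelin in batch 0 alone (-0.03) and chemokines with genes above the 25th percentile (-0.06). The median over all genes moved by less than 0.1 in every alternative. Depth per mouse is not known beyond a minimum stated by the study, so counting error could not be separated from the spread between mice.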

Other observations

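Outside the lists and the named genes, the small-effect genes hold some groups that were noticed after their values were seen and were not tested as groups. Among the higher ones stood receptors and adaptors of cytokines, namely Ifnar2 (0.33), Ifngr1 (0.24), Il2rg (0.26), Il21r (0.30), Csf2ra (0.33), Tnfrsf1a (0.49) and Tnfrsf1b (0.27), and Socs3 (0.47), which dampens their signal. Genes of inflammasomes and cell death stood there too, with Gsdmd (0.44), Naip5 (0.39), Naip6 (0.45) and Nlrp3 (0.26), where the near-identical Naip genes may share reads, as did Tspo (0.42), the target of tracers used to image glia in living brain. Iron-related genes were the heme oxygenase Hmox1 (0.26), the ferritin light chain Ftl1 (0.33) and the ferric reductase Cybrd1 (0.47), while Heph, a ferroxidase, was lower (-0.34).

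Among the lower ones stood genes of neuronal calcium and growth factor signalling, with the calcium pump Atp2b2 (-0.18), the sodium channel subunit Scn3b (-0.28), the potassium channel subunit Kcnf1 (-0.25), Doc2b (-0.23), Irs2 (-0.22), the neurturin receptor Gfra2 (-0.29) and Nmnat2 (-0.13), an enzyme that maintains axons. Atp2b2 and Scn3b lost their calls with the choroid plexus level as a covariate (limma adjusted p = 0.17 and 0.18). They also lost them under quantile normalization (limma adjusted p = 0.14 and 0.17). Apln, a ligand of vascular cells, was lower by 0.43 with a limma adjusted p of 1.7e-05, and was also called within 1 tau genotype and diet, so it is not a small-effect gene.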
